A study of Mus musculus with 6 samples.

Results

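The promoters of 8 ionocyte genes were followed in chromatin accessibility data from medullary thymic epithelial cells of Kat7-knockout and wildtype mice. The genes were taken by symbol and fall into 3 roles: the transcription factor genes Foxi1, Foxi2 and Ascl3, the chloride channel genes Cftr and Bsnd, and the proton pump subunit genes Atp6v1b1, Atp6v0d2 and Atp6v1g3. All 8 symbols matched a window, out of 27095 gene windows in all, and all 8 passed the filter on low counts. Accessibility was measured by ATAC-seq, an assay in which a transposase inserts sequencing adapters into open chromatin, in cells with high MHC class II. There were 3 libraries from Kat7-knockout mice and 3 from wildtype mice, all on the C57BL/6 background and from separate biological replicates. KAT7 is a histone acetyltransferase. How Kat7 was deleted, in which cells, and how old the mice were is not stated in the labels. The comparison asks which of these promoters lose or gain accessibility when KAT7 is missing.

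Ionocytes are rare epithelial cells that move protons, chloride and bicarbonate across a tissue surface. They are known from airway, kidney (where they are called intercalated cells), inner ear, epididymis and salivary ducts. FOXI1, a forkhead factor, sets their identity in mouse and switches on genes of the vacuolar proton pump (V-ATPase) and of anion transport. In the thymus, medullary epithelial cells include small subsets that resemble cells of other tissues, ionocytes among them, and show their proteins to developing T cells. A bulk library averages over all cells sorted, so a smaller number of ionocyte-like cells and lower accessibility per cell cannot be told apart.

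Each value is a count of sequenced tags in a window that begins 3000 bases before a gene start and ends 2000 bases after it, in mouse build mm10. Counts were scaled by library size and are given as CPM, which corrects for differences in sequencing depth. The windows of all 8 ionocyte genes had the same length, the annotated gene start lay exactly 3000 bases into each, and none shared a base with the window of another gene. Differences in length or in shared bases therefore do not enter when their CPM values are set side by side. Base composition, which differs between these promoters, is not corrected by CPM. Library totals were between 15482439 and 19832326 counts, so 3 counts in a library, the upper limit for a window with none, were worth 0.154 to 0.192 CPM. The window of Kat7 itself held 11.9, 13.2 and 38.3 CPM in knockout libraries 1 to 3, with library 3 the highest, against 290.7, 238.3 and 272.1 CPM in wildtype libraries 1 to 3 (mean 21.2 ± 14.9 CPM in knockout and 267 ± 26.5 CPM in wildtype, SD, n = 3 each; log2 fold change -3.66, adjusted p = 0.0143 by edgeR's quasi-likelihood test). Promoters that mark medullary thymic epithelium were open in both groups. Over 12 markers the summed level was 1877 to 2263 CPM in knockout and 1969 to 2035 CPM in wildtype libraries. Of these, 1 marker was higher, none lower and 11 not past the threshold (2 higher and 2 lower at an unadjusted p under 0.05). By level, 11 of the 12 lay in the highest quartile of all tested windows, where only 3.72% fell and 9.32% rose.

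Of the 8 ionocyte promoters, 5 fell in the knockout, none rose and 3 did not pass (edgeR's quasi-likelihood test, Benjamini-Hochberg adjustment over 24817 windows, threshold 0.05). Over all windows tested, 20.2% fell and 6.36% rose. Those that fell were Atp6v1b1, Bsnd, Foxi2, Cftr and Ascl3, and those that did not pass were Foxi1, Atp6v0d2 and Atp6v1g3. The median log2 fold change of the 8 was -0.47, against 0.04 over all windows tested. With windows split into quartiles by mean CPM, the members lay in the second and the third quartile, whose medians were -0.27 and -0.19. No member rose at an unadjusted p under 0.05 or in DESeq2; limma-voom with sample weights called Atp6v0d2 and Atp6v1g3 higher. In 6 of the 8 the 3 knockout libraries were all lower than the 3 wildtype libraries, a separation found in 24.6% of all windows tested.

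**Figure D1:**
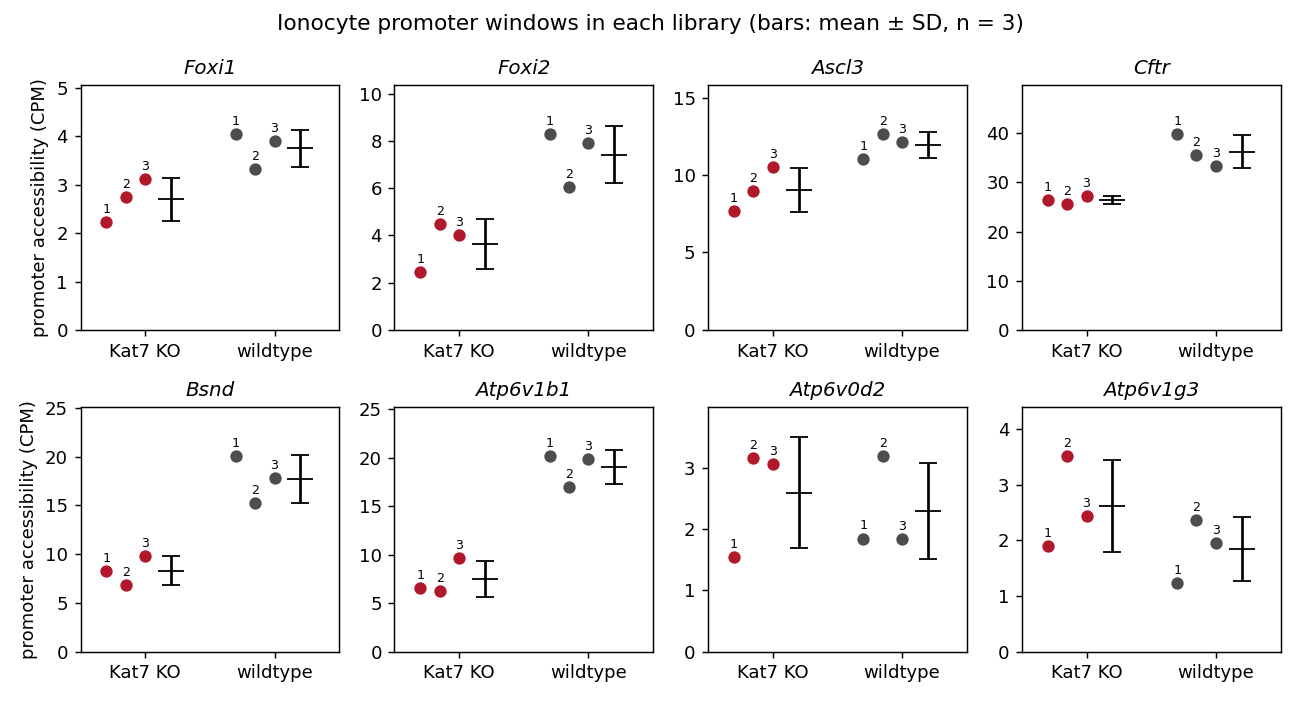
Promoter accessibility (CPM, linear axes from 0) of the 8 ionocyte genes in each library, with knockout libraries (red) left of wildtype libraries (grey), replicate numbers above the points, and the mean ± SD of 3 libraries beside them. The groups do not overlap for Foxi1, Foxi2, Ascl3, Cftr, Bsnd and Atp6v1b1, and they overlap for Atp6v0d2 and Atp6v1g3.

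The sequences upstream of the 4 falling genes that had an entry in the RefSeq promoter table (build GRCm38.p6) differed widely in base composition. They are shown because each of these promoters was called lower while their sequences differ, though the call at Ascl3 held in 5 of 14 alternatives. Each is the 250 bases before the gene start, written in the gene's direction: Atp6v1b1 at chr6:83742767-83743016 (plus strand), Cftr at chr6:18170437-18170686 (plus strand), Foxi2 at chr7:135410117-135410366 (plus strand) and Ascl3 at chr7:109731733-109731982 (minus strand). Capitals mark a forkhead motif, searched as TGTTTAC on both strands.
Atp6v1b1: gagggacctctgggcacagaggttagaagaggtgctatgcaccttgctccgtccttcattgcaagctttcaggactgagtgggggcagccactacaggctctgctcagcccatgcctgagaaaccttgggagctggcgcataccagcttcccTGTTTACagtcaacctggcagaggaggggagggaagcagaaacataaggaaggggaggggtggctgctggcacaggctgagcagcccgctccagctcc
Cftr: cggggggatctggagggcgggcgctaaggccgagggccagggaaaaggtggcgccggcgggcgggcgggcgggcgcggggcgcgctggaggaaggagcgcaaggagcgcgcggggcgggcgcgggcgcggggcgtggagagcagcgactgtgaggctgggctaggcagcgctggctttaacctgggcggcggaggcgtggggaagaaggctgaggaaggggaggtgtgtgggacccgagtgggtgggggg
Foxi2: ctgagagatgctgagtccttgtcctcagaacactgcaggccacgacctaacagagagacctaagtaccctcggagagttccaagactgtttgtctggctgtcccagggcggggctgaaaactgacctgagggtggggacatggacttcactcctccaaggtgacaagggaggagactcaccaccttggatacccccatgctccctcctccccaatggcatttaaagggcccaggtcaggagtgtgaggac
Ascl3: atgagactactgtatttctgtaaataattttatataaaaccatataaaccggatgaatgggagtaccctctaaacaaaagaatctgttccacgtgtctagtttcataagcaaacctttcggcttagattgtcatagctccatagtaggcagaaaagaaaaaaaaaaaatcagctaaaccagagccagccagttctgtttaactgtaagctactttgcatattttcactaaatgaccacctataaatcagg

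Cftr had the sequence richest in CpG, with 30 CpG dinucleotides and 76.4% G or C. Foxi2, Ascl3 and Atp6v1b1 each held 3 CpG dinucleotides, with 56.8%, 34.8% and 59.6% G or C. Of the members not shown, Foxi1 had 4 CpG dinucleotides (58.8% G or C) and Atp6v1g3 had 1 (44.4% G or C). The median over 32851 promoters in the table was 6 CpG dinucleotides and 52.4% G or C. The forkhead motif stood once in these 6 sequences, in that of Atp6v1b1 with its first base at position -98 from the gene start, and 3.17% of all promoters held it in the same stretch. The E-box CAGCTG, a motif that proneural bHLH factors related to ASCL3 bind, was in none of the 6 and in 13.0% of all promoters. A match is a string of letters and not a measured binding site, and the distal parts of the windows were not searched. Bsnd and Atp6v0d2 were matched in no entry of the table.

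Among the proton pump genes, Atp6v1b1 showed the largest loss of all 8 members, and Atp6v0d2 and Atp6v1g3 did not pass. Atp6v1b1 encodes the B1 subunit of the pump's cytosolic V1 part, the isoform of proton-secreting cells, and is a known FOXI1 target in mouse. Its window (gene identifier 110935, chromosome 6, 83740017 to 83745017) held 6.53, 6.27 and 9.60 CPM in knockout libraries 1 to 3, against 20.2, 17.0 and 19.8 CPM in wildtype libraries 1 to 3. Knockout library 3 was the highest of its group, and still well below the lowest wildtype library. The knockout kept 39.3% of the wildtype mean (log2 fold change -1.35, SE 0.139, adjusted p = 1.12e-20). It passed in all 14 processing alternatives, with log2 fold changes of -1.57 to -0.91.

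Atp6v0d2 encodes the d2 subunit of the membrane-bound V0 part, known in mouse from osteoclasts and kidney intercalated cells. Its window (gene identifier 242341, chromosome 4, 19920566 to 19925566) held 1.55, 3.17 and 3.06 CPM in knockout libraries 1 to 3 and 1.84, 3.20 and 1.83 CPM in wildtype libraries 1 to 3, from 27 to 53 counts per library. The groups overlapped, with library 2 high in both. The log2 fold change was 0.18 with an approximate 95% interval of -0.46 to 0.82 (adjusted p = 0.727). Since d2 is also a macrophage and osteoclast gene, 12 markers of those cells were read beside it. Of these 4 fell (Cx3cr1, Csf1r, Lyz2 and Acp5) and none rose, also at an unadjusted p under 0.05. By level, 2 of the 8 in the second quartile and 2 of the 3 in the third fell, beside 32.5% and 43.2% of all windows there. The summed level of the 12 was 98.5 to 108 CPM in knockout and 120.3 to 131 CPM in wildtype libraries. Cx3cr1 alone had means of 13.0 CPM in knockout and 30.0 CPM in wildtype. The part of macrophages and osteoclasts in the value of Atp6v0d2 was not tested.

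Atp6v1g3 encodes the G3 subunit of the pump's stalk, an isoform known from kidney. It held 1.89, 3.52 and 2.45 CPM in knockout libraries 1 to 3, against 1.23, 2.36 and 1.95 CPM in wildtype libraries 1 to 3 (gene identifier 338375, chromosome 1, 138270738 to 138275738). Library 2 was again the highest of its group on both sides, and the groups overlapped. The log2 fold change of 0.51 had an approximate 95% interval of -0.17 to 1.19 (adjusted p = 0.293). Both windows rest on few counts, 24 to 59 per library, and their calls depended on the tool: limma-voom with sample weights gave a log2 fold change of 0.52 for Atp6v0d2 (adjusted p = 0.0453) and 0.74 for Atp6v1g3 (adjusted p = 0.00493), and the other alternatives called neither.

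Both chloride channel genes fell. Bsnd encodes barttin, an accessory subunit that chloride channels of kidney and inner ear need at the cell surface. The Bsnd window (gene identifier 140475, chromosome 4, 106490243 to 106495243) held 8.31, 6.81 and 9.78 CPM in knockout libraries 1 to 3, against 20.1, 15.2 and 17.8 CPM in wildtype libraries 1 to 3. All knockout libraries were well below all wildtype libraries. The mean fell to 46.9% of wildtype (log2 fold change -1.10, SE 0.138, adjusted p = 5.38e-14), and the log2 fold change was -0.65 after loess normalisation, which removes any trend of change with accessibility (adjusted p = 0.00135).

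Cftr encodes the cAMP-regulated chloride channel that is mutated in cystic fibrosis and is concentrated in airway ionocytes. Its window was the most accessible of the 8 in both groups (gene identifier 12638, chromosome 6, 18167687 to 18172687). It held 26.5, 25.6 and 27.2 CPM in knockout libraries 1 to 3 and 39.9, 35.7 and 33.3 CPM in wildtype libraries 1 to 3. The knockout libraries lay close together and below the wildtype libraries, which were more spread. The mean was 72.8% of wildtype (log2 fold change -0.46, SE 0.113, adjusted p = 0.000343). After loess normalisation the log2 fold change was -0.23 (adjusted p = 0.0409).

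Of the transcription factor genes, Foxi2 and Ascl3 fell and Foxi1 did not pass. Foxi2, a forkhead gene of the same family as Foxi1, had 2.46, 4.48 and 4.04 CPM in knockout libraries 1 to 3, against 8.30, 6.07 and 7.92 CPM in wildtype libraries 1 to 3 (gene identifier 270004, chromosome 7, 135407367 to 135412367). Knockout library 1 was the lowest of the 6. The mean fell to 49.3% of wildtype (log2 fold change -1.03, SE 0.200, adjusted p = 2.51e-06). The log2 fold change was -0.66 after loess normalisation (adjusted p = 0.0106) and -0.81 without knockout library 1 (adjusted p = 0.00142).

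Ascl3 encodes a bHLH factor that marks ionocytes and cells of salivary ducts. The levels of Ascl3 were 7.68, 8.96 and 10.5 CPM in knockout libraries 1 to 3 and 11.02, 12.7 and 12.1 CPM in wildtype libraries 1 to 3 (gene identifier 56787, chromosome 7, 109729732 to 109734732). The groups did not overlap, but knockout library 3 and wildtype library 1 were close. The log2 fold change was -0.40 (SE 0.147, adjusted p = 0.0282), and it was 0.06 after loess normalisation (adjusted p = 0.755). This call held in 5 of 14 alternatives: the adjusted p was 0.131 without knockout library 1, 0.106 without knockout library 2, 0.0686 without wildtype library 2 and 0.107 without wildtype library 3.

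Foxi1, the master factor of ionocytes, had few tags in either group, from 39 to 79 per library. Its window (gene identifier 14233, chromosome 11, 34206089 to 34211089) held 2.23, 2.75 and 3.12 CPM in knockout libraries 1 to 3, against 4.05, 3.32 and 3.90 CPM in wildtype libraries 1 to 3. Every knockout library was below every wildtype library, by little in the case of knockout library 3 and wildtype library 2. The mean was 71.9% of wildtype, and the log2 fold change of -0.48 had an approximate 95% interval of -1.01 to 0.05 (adjusted p = 0.194). None of the 14 alternatives called it, and its log2 fold change in them ranged between -0.60 and -0.32.

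The order of levels differed between the groups. In knockout libraries Cftr led (26.4 CPM), clear of Ascl3 (9.05 CPM), Bsnd (8.30 CPM) and Atp6v1b1 (7.47 CPM), whose library ranges overlapped from each to the next. Foxi2 followed (3.66 CPM), below Atp6v1b1 in every library, and then Foxi1 (2.70 CPM), Atp6v1g3 (2.62 CPM) and Atp6v0d2 (2.59 CPM), again with overlapping ranges from each to the next. In wildtype libraries Cftr (36.3 CPM) was followed by Atp6v1b1 (19.0 CPM) and Bsnd (17.7 CPM), which overlapped, and then by Ascl3 (11.9 CPM), Foxi2 (7.43 CPM) and Foxi1 (3.76 CPM), each apart from the next. Atp6v0d2 (2.29 CPM) and Atp6v1g3 (1.85 CPM) overlapped at the low end. As a scale for closed chromatin, 97 olfactory receptor windows of the same length that shared no base with others had medians of 1.52 CPM in knockout and 0.978 CPM in wildtype libraries. Their median log2 fold change was 0.56. The level of Atp6v1g3 was above 86.6% of these windows in knockout and above 82.5% in wildtype libraries. Foxi1 was above 87.6% of them in knockout and 92.8% in wildtype libraries.

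**Figure D2:**
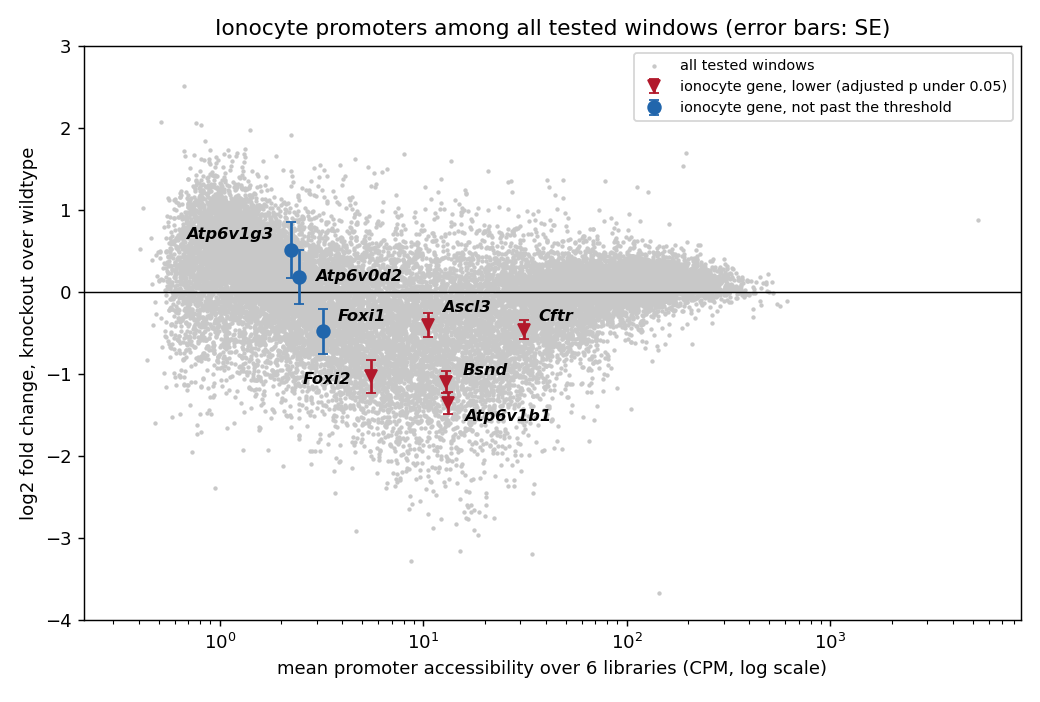
Log2 fold change (knockout over wildtype, error bars SE for the ionocyte genes) against mean accessibility over 6 libraries (CPM, log axis) for all 24817 tested windows (grey) and the 8 ionocyte genes (red triangles, fell; blue circles, did not pass). The 5 that fell lie at intermediate levels, from Foxi2 to Cftr, and the 3 that did not pass lie to their left at the lowest levels.

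Losses over all windows were most frequent at the intermediate levels where these promoters lie; in the lowest and highest quartiles of level, which hold no member, 1.35% and 3.72% of windows fell and 2.26% and 9.32% rose. Of the members, 4 (Ascl3, Cftr, Atp6v1b1 and Bsnd) fell in the third quartile, where 43.2% of windows fell and 9.28% rose. The other 4 were in the second quartile, where 32.5% fell and 4.58% rose; of these Foxi2 fell. Their calls are thus to be read against these shares as well as against the 20.2% over all windows. Knockout library 1 stood apart from knockout libraries 2 and 3, in a direction that differed with level. Its median against the wildtype mean on the log2 scale was -0.51 in the second quartile (-0.21 and -0.13 in knockout libraries 2 and 3), -0.09 in the third (-0.25 and -0.23) and 0.29 in the fourth (0.02 and -0.01). It was the lowest knockout library for 5 of the 8 members, and knockout library 2 for the other 3.

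The proton pump was then read as a whole. V-ATPase subunits come in isoforms, some made by nearly all cells and others by specialised proton-secreting cells. Of 5 isoforms restricted to specialised cells, 3 fell and none rose, with a median log2 fold change of -0.90: beside Atp6v1b1 these were Atp6v1c2, a C2 subunit gene (6.37 ± 0.948 CPM in knockout and 13.99 ± 0.805 CPM in wildtype, SD, n = 3 each; log2 fold change -1.14, adjusted p = 1.25e-12), and Atp6v0a4, an a4 subunit gene that FOXI1 is known to switch on in mouse (3.56 ± 0.899 CPM in knockout and 6.63 ± 1.10 CPM in wildtype; -0.90, adjusted p = 0.000116). Both passed in all 14 alternatives. The other 2 were Atp6v0d2 and Atp6v1g3; none of the 5 rose at an unadjusted p under 0.05, DESeq2 called none higher, and limma-voom called these 2 higher. Of 20 other subunit and accessory genes of the pump, none fell and none rose by edgeR's test as described, with a median of 0.09, but the count of higher calls depended on the processing. It was 6 with library totals, 6 with a mean count of at least 50, 4 with loess normalisation, 3 without a filter and 3 without wildtype library 2; 2 rose without knockout library 1 and 2 without knockout library 3, while 1 fell with library totals, with loess and without knockout library 1. At an unadjusted p under 0.05 none of the 20 was lower and 3 were higher, DESeq2 called 2 higher and none lower, and limma-voom called 4 higher and 3 lower. These 20 were not limited to broadly expressed isoforms, and most of them were far more accessible than the 5. Over the 13 whose windows shared no base with others, the median level was 106.8 CPM in knockout and 95.5 CPM in wildtype libraries. Atp6v0a1 had 190.6 CPM in knockout and 154.6 CPM in wildtype (log2 fold change 0.30, adjusted p = 0.0603 by edgeR's test). Atp6v0c had 181.0 CPM in knockout and 179.4 CPM in wildtype (0.01, adjusted p = 0.953, and below 0 under other scalings). Atp6v1e2, the lowest of the 13, had 2.33 CPM in knockout and 3.45 CPM in wildtype (-0.57, adjusted p = 0.145). Atp6v0a1 passed as higher in 10 of 14 alternatives, and Atp6v1g1 (0.28, adjusted p = 0.0754) in 9 of 14. The 2 lists differed in level: 4 of the 5 restricted genes were in the second quartile and 1 in the third, where 32.5% and 43.2% of all windows fell, whereas 12 of the 20 others were in the fourth and 3 in the first, where 3.72% and 1.35% fell, so their counts of calls cannot be compared directly.

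The 3 pump members were also set against the broad isoform of the same subunit within each library, which needs no scaling for library size. A ratio does not remove differences between libraries that vary with level. Atp6v0d2 and Atp6v1g3 were in the second quartile of level, and Atp6v0d1 and Atp6v1g1 in the fourth. In these quartiles the median of knockout library 1 against the wildtype mean was -0.51 and 0.29. Atp6v1b1 was in the third quartile and Atp6v1b2 in the first, whose median log2 fold changes were -0.19 and 0.37. The medians of knockout libraries 1 to 3 against the wildtype mean were -0.09, -0.25 and -0.23 in the third quartile. In the first they were -0.24, 0.53 and 0.64. The part of level in the ratio of this pair was not tested. The log2 ratio of Atp6v1b1 to Atp6v1b2 was 2.29 ± 0.429 in knockout and 3.55 ± 0.425 in wildtype libraries (SD, n = 3 each), a difference of -1.25 with no overlap between the groups (exact two-sided permutation p = 0.1, the smallest that 3 against 3 allows; 0.3 after adjustment over 3 pairs). For Atp6v0d2 to Atp6v0d1 the difference was -0.03 (exact p = 1), and it was 0.40 without knockout library 1 and 0.24 without wildtype library 2. For Atp6v1g3 to Atp6v1g1 it was 0.21 (exact p = 0.6), and it was -0.06 without knockout library 2 and -0.02 without wildtype library 1. The window of Atp6v1b2 shared 70.3% of its bases, and that of Atp6v0d1 46.9%, with a neighbouring window, so their counts may cover only part of each promoter. Atp6v1b2 also rested on few counts, 21 to 30 per library (1.40 CPM in knockout and 1.54 CPM in wildtype), in the first quartile of level. The size of its ratio is therefore no measure of how open the 2 promoters are.

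Of 22 other genes known from FOXI1-positive cells, 12 fell, 1 rose and 9 did not pass, with a median log2 fold change of -0.38. The list was chosen with earlier results of these data known. By level, 3 of the 7 in the second quartile and 8 of the 11 in the third fell, beside 32.5% and 43.2% of all windows there. The largest declines were at Car2, a cytosolic carbonic anhydrase gene (7.29 ± 1.09 CPM in knockout and 20.8 ± 2.99 CPM in wildtype, SD, n = 3 each; log2 fold change -1.52, adjusted p = 2.22e-26), at Car12, a membrane-bound carbonic anhydrase gene (7.76 ± 1.03 CPM in knockout and 16.1 ± 1.73 CPM in wildtype; -1.06, adjusted p = 1.80e-12), and at Pparg, a nuclear receptor gene (14.3 ± 2.31 CPM in knockout and 29.2 ± 4.53 CPM in wildtype; -1.03, adjusted p = 5.53e-16). Hepacam2, an adhesion protein gene found in intercalated cells and in tuft cells, was the member that rose (14.5 ± 2.92 CPM in knockout and 6.00 ± 1.90 CPM in wildtype; 1.28, adjusted p = 9.50e-16), in a window sharing 42.1% of its bases with another. Parm1 (0.09, and -0.02 after loess normalisation) and Hmx3 (0.08) had high levels and did not pass. Among FOXI1 targets in mouse, chosen after their values were seen, the anion exchanger genes split: Slc26a4, which encodes pendrin, fell (32.4 CPM in knockout and 41.7 CPM in wildtype; -0.37, adjusted p = 0.00581), though not without knockout library 2 (adjusted p = 0.119) nor in DESeq2 (adjusted p = 0.0713), while Slc4a9 (0.01, and below 0 under other scalings) and Slc4a1 (-0.22, adjusted p = 0.628) did not pass.

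**Figure D3:**
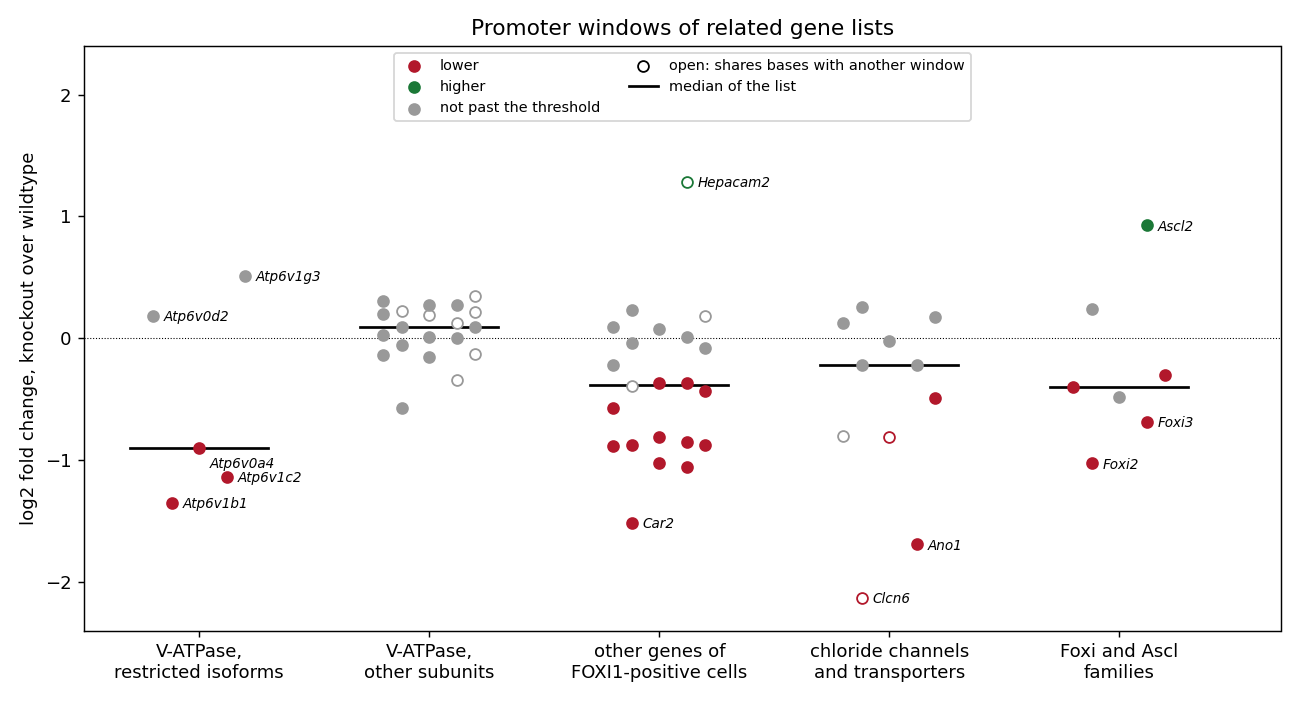
Log2 fold change (knockout over wildtype) of each tested window in 5 lists of related genes, coloured by call at an adjusted p of 0.05 (red, lower; green, higher; grey, not past the threshold), with open circles for windows that share bases with another and a line at each list's median. Among the restricted pump isoforms 3 of 5 fell, and the 20 other pump genes, most of them at higher levels, are grey with a median of 0.09.

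Beside Cftr and Bsnd, 13 chloride channel and transporter genes were listed, of which 11 were tested: 4 fell, none rose and 7 did not pass, with a median log2 fold change of -0.22. The 4 that fell were all in the second quartile of level, where 32.5% of all windows fell, and of the 8 windows that shared no base with another 2 fell. At an unadjusted p under 0.05 1 was higher, and DESeq2 and limma-voom called none higher. Ano1, a calcium-activated chloride channel gene, fell to 3.33 ± 1.15 CPM in knockout, against 10.7 ± 1.79 CPM in wildtype (log2 fold change -1.69, adjusted p = 9.28e-19). Clcn6, a chloride transporter gene of late endosomes, had -2.13 (adjusted p = 6.98e-43) in a window of which 86.2% was shared. Clcn1, a skeletal muscle channel gene, had -0.49 (adjusted p = 0.0125), which passed in 8 of 14 alternatives and not without knockout library 1 (adjusted p = 0.0973) or wildtype library 3 (adjusted p = 0.211). The broadly used Slc12a2 (0.12) and Clcn4 (-0.02) did not pass. Clcn4 had 0.03 with RLE factors, and -0.14 after loess normalisation, where it was called lower (adjusted p = 0.0275 by edgeR's test).

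Among 7 genes of the Foxi and Ascl families, 4 fell and 1 rose; 4 of the 7 were in the third quartile of level, where 43.2% of all windows fell. Foxi3, the third Foxi gene, known from ectoderm and pharyngeal development, fell to 10.7 ± 0.478 CPM in knockout, against 17.2 ± 1.53 CPM in wildtype (log2 fold change -0.69, adjusted p = 2.49e-06); after loess normalisation it had -0.25 (adjusted p = 0.102). Ascl2, a bHLH gene of intestinal stem cells, rose to 38.4 ± 4.77 CPM in knockout, against 20.2 ± 0.0881 CPM in wildtype (0.93, adjusted p = 1.39e-14), and passed in all 14 alternatives. Ascl4 fell (-0.30, adjusted p = 0.0308), which held in 8 of 14 alternatives, and not without knockout library 2 (adjusted p = 0.0835), knockout library 3 (0.209) or wildtype library 1 (0.0716). Ascl3 and Ascl2 thus had calls of opposite sign, at -0.40 and 0.93, though Ascl3 had 0.06 after loess normalisation.

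The next window on either side of each member was read as well. Of these 16 neighbours 5 fell, 2 rose and 9 did not pass, beside 20.2% and 6.36% over all windows. Next to Foxi2, Clrn3, a clarin family gene 114.3 kb away, also fell (7.51 ± 2.20 CPM in knockout and 31.8 ± 1.68 CPM in wildtype; -2.09, adjusted p = 9.56e-55), and the gene model 4930544L04Rik, 9.03 kb on the other side, had -0.52 (adjusted p = 0.00677; -0.07 and adjusted p = 0.715 after loess normalisation). Cttnbp2, a cortactin-binding protein gene 340.1 kb from Cftr, fell by 1.05 on the log2 scale (adjusted p = 4.84e-17). Another that fell was a gene model without a symbol, 24.8 kb from Atp6v1b1, with -1.25 (adjusted p = 3.26e-06) in a window of which 74.6% was shared. The 2 that rose were Insyn2b, 100.7 kb from Foxi1 (0.36, adjusted p = 0.00901; 0.0863 without wildtype library 1 and 0.0866 without wildtype library 3), and Ptprc, the leukocyte gene CD45, 92.4 kb from Atp6v1g3 (0.89, adjusted p = 0.0148). The call at Ptprc ended without knockout library 3 (adjusted p = 0.0671), wildtype library 1 (0.193) or wildtype library 3 (0.0847). Both neighbours of Ascl3 did not pass (BC051019 -0.39, Tmem9b -0.09).

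Over the 6 libraries, the window closest to each member in level and pattern was sought among 24816 others by the root mean square difference in log2 CPM. The nearest to Cftr was Ppp1r14a, a phosphatase inhibitor gene, at 0.0581, and the nearest to Foxi1 was the protocadherin gene Pcdhac1 at 0.0623. Bsnd was closest to Gm10510 (0.0761), Atp6v1b1 to Spag16 (0.0805), Ascl3 to Il36g (0.0964) and Foxi2 to Aadacl4 (0.124). The low windows of Atp6v1g3 and Atp6v0d2 were closest to Zfp72 (0.103) and Lrrc74a (0.107). No member was the nearest window of another member.

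**Figure D4:**
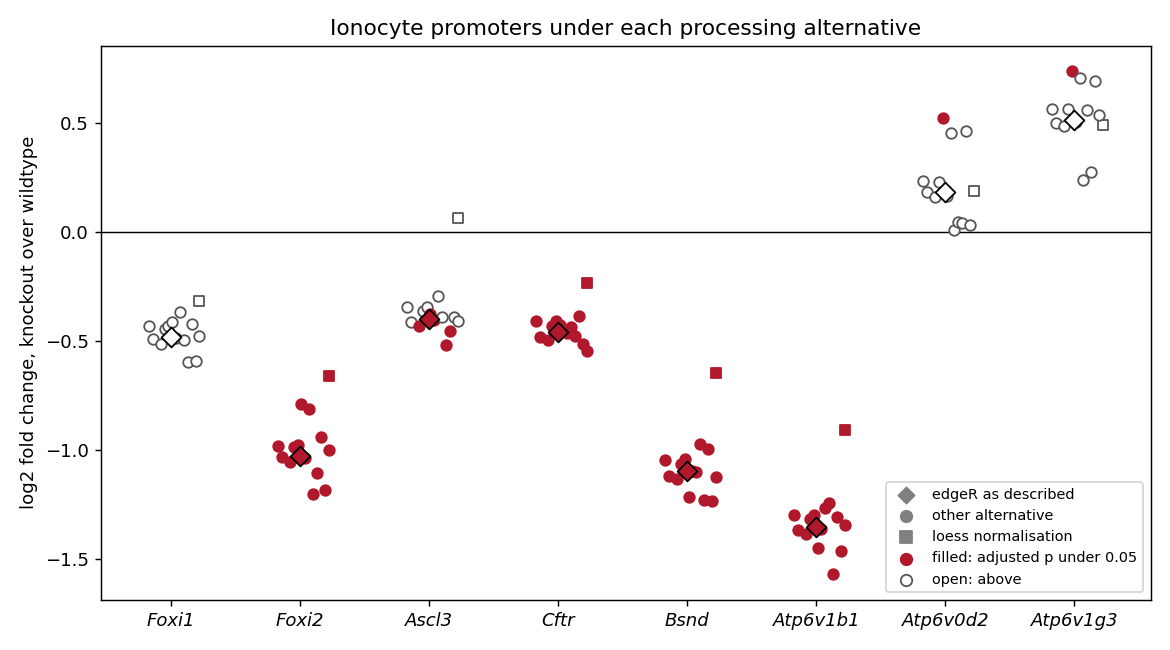
Log2 fold change (knockout over wildtype) of the 8 ionocyte promoters as described (diamonds), after loess normalisation (squares) and under every other alternative (circles), filled where the adjusted p was under 0.05. Foxi2, Cftr, Bsnd and Atp6v1b1 are filled throughout, Ascl3 is filled in some and above 0 after loess normalisation, and Foxi1 is open throughout.

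Markers of other cells that a sort can carry along moved in both directions. Over all windows tested, 20.2% fell and 6.36% rose. Of 6 B cell markers 4 fell, with a summed level of 41.4 to 43.7 CPM in knockout and 65.0 to 66.8 CPM in wildtype libraries. By level, 3 of the 6 were in the second quartile, where 32.5% of all windows fell, and 3 in the third, where 43.2% fell. Of 7 mesenchymal markers 4 fell and 2 rose, and their sum was 115 to 118 CPM in knockout and 142 to 150 CPM in wildtype libraries. In the third quartile were 6 of the 7, of which 3 fell and 2 rose. Of 6 endothelial markers 2 fell and 1 rose (sum 34.4 to 38.5 CPM in knockout and 42.5 to 45.5 CPM in wildtype libraries). Of 10 tested thymocyte markers 3 rose and none fell (49.3 to 56.6 CPM in knockout and 41.5 to 45.1 CPM in wildtype libraries), and none was lower at an unadjusted p under 0.05. The second quartile, where 4.58% of all windows rose, held 9 of the 10. Of 7 dendritic cell markers 1 fell and 1 rose (187.7 to 233.3 CPM in knockout and 173.4 to 180.9 CPM in wildtype libraries). Most of that sum came from Zbtb46, the marker that rose, with means of 170.3 CPM in knockout and 136.5 CPM in wildtype. Of 6 cortical thymic epithelial markers 1 fell and 2 rose (195.9 to 227.9 CPM in knockout and 194.8 to 210.8 CPM in wildtype libraries). No listed marker was at 0 in any library, though some thymocyte markers held as few as 2 counts, and the part of these cells in the ionocyte values was not tested.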

How the data were processed

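The deposited values were raw counts per gene window for each of 6 ATAC-seq libraries, made by the authors; the submitters' processing notes name featureCounts and build mm10. No source used here gives an aligner, a treatment of duplicates or a shift for the transposase offset. Duplicates can raise single windows, and reads in bases shared by neighbouring windows may be left out. Symbols came from the libraries' own tables, whose counts equal those in the series table. Groups and replicate numbers came from the labels: 3 Kat7-knockout and 3 wildtype libraries.

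The counts were fitted with edgeR 4.0.16 in R 4.3.3, using filterByExpr, TMM factors (0.884 to 1.06), robust quasi-likelihood test without a replicate block, Benjamini-Hochberg adjustment over 24817 windows at 0.05. SE is the log2 fold change over the root of the quasi-likelihood F, and approximate 95% intervals are 1.96 SE on either side. CPM is scaled to library size and TMM factor; log2 CPM used a prior count of 2. Window ratios were compared by exact permutation. Intervals and floors cover counting error only where they rest on counts, since tags without molecular identifiers are not independent molecules. Alternatives were RLE factors, library totals, loess offsets, no filter, a mean count of at least 50, DESeq2 1.42.0, limma-voom 3.58.1, a replicate block and leaving out each library. Genes were named by rule: the members, their broad pump isoforms, in each list the 4 called windows with the largest change and up to 2 uncalled ones with the highest level, the adjacent windows and the nearest pattern. Of the windows adjacent to members, those called and both of Ascl3 are named. Some results that these rules select are not reported here. The members and lists were chosen with earlier results of these data known.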

Additional observations from a re-analysis of the deposited data

How the results depend on the processing

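Atp6v1b1, Bsnd, Foxi2 and Cftr were lower and passed in all 14 alternatives, and 4 or 5 of the 8 members were called lower in each. None was called higher except with limma-voom (2, Atp6v0d2 and Atp6v1g3). For Ascl3 the adjusted p ranged from 0.0054 to 0.755, and the log2 fold change of 0.0632 after loess normalisation was above 0. Over all windows 5011 fell (4227 to 5709 leaving out a library) and 1578 rose (689 to 3177). The higher count was 2937 with library totals, 4320 with loess, 3937 with a mean count of at least 50 and 4723 with limma-voom. The higher share of calls was 23.9%, against 29.6% with RLE factors, 35.6% with library totals and 47.0% with loess; the cause was not tested. With replicate number as a block 2824 windows rose, 3 of the 20 other pump genes among them, and no call of a member changed. Deviations of same-numbered libraries correlated at 0.374, 0.0284 and 0.389; knockout library 2 correlated more with wildtype library 3 (0.308), so the libraries were not treated as pairs.

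Signs turned for small values. Leaving out a library, the ratio of Atp6v0d2 to its broad isoform differed by -0.251 to 0.404 between groups and that of Atp6v1g3 by -0.0643 to 0.479, Atp6v1b2 had -0.247 to 0.0159, Atp6v0c -0.0965 to 0.0673, Clcn4 -0.132 to 0.0571, Hmx3 -0.0583 to 0.166 and Slc4a9 -0.0856 to 0.0958 (log2). With library totals Atp6v0c had -0.0191 and Slc4a9 -0.0162, without a filter -0.0256 and -0.0255, and with limma-voom -0.0775 and -0.0230. Clcn4 had 0.0329 with RLE factors and with DESeq2, and 0.0025 under the filter on mean count, but -0.136 with loess, the only alternative that called it. With loess Atp6v0c had -0.104, Parm1 -0.0185 and Il36g 0.0311. Windows of 24 to 79 counts (Foxi1, Atp6v0d2, Atp6v1g3) and of 21 to 30 counts (Atp6v1b2) limit what can be seen.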
